A study of Rattus norvegicus with 12 samples.

Results

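The genes described here are the glucocorticoid receptor gene Nr3c1, the related mineralocorticoid receptor gene Nr3c2, the steroid enzyme gene Hsd11b1 and 7 genes known as receptor targets, namely Tsc22d3, Fkbp5, Sgk1, Klf9, Errfi1, Angptl4 and Pdk4. They were taken by name, and every probe set that the array annotation assigns to exactly 1 of these genes was included. All 10 genes were on the array, with 15 of the 20826 probe sets that carry 1 gene, and they are 10 of 14217 such genes. The samples were left brain hemispheres of male Sprague-Dawley rats aged 8 weeks, 1 array per rat. Occlusion of the middle cerebral artery with later reperfusion, a rodent stroke model abbreviated MCAO, had been done in 7 rats, and a sham procedure (Sham) in the other 5. All hemispheres were removed 24 h after reperfusion. The labels give neither the side that was occluded nor its duration. The extent of injury in the sampled hemispheres is not given either, so injured and spared regions cannot be told apart.

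Corticosterone, the main glucocorticoid of rats, enters cells and binds 2 related receptors that act as transcription factors. The mineralocorticoid receptor binds it tightly and is rich in hippocampal neurons, whereas the glucocorticoid receptor is present in most brain cells and is engaged mainly when hormone levels are high, as during stress. The enzyme encoded by Hsd11b1 regenerates active hormone inside cells. Bound receptor raises transcription of genes such as Tsc22d3, Fkbp5, Sgk1 and Klf9, and several of their products limit the response. Hormone levels, receptor protein and receptor binding were not measured in these samples, and most of these targets also respond to other signals.

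Start regions were compared because Angptl4 and Errfi1 rose most while Tsc22d3 fell. They cover 250 bases before to 50 bases after the annotated gene start, from RefSeq on build GRCr8, which held 8 of the 10 genes (not Nr3c2 and Hsd11b1). Capitals mark the TATA box TATAAA and the core ACGTG, which is part of hypoxia response elements, on either strand. Angptl4 lies on the minus strand at chr7:15258632-15258931, Errfi1 on the plus strand at chr5:166606591-166606890, and Tsc22d3 on the minus strand at chrX:109066340-109066639.
Angptl4: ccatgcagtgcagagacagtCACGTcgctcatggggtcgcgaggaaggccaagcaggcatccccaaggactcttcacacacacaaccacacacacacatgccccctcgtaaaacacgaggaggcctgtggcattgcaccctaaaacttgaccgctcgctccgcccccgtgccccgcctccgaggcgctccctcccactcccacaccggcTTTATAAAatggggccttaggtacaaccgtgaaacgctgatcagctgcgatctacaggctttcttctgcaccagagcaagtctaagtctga
Errfi1: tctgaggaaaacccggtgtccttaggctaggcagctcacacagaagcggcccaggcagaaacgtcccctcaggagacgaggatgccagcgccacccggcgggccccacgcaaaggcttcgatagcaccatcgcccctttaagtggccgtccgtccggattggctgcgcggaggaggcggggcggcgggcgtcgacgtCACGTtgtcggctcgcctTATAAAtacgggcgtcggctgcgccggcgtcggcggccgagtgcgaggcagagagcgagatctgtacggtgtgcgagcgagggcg
Tsc22d3: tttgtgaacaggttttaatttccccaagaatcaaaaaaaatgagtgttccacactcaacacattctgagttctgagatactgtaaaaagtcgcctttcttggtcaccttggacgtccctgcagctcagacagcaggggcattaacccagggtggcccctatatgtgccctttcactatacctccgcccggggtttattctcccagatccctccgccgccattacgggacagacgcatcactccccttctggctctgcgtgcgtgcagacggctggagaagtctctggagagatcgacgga

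In these windows Errfi1 had ACGTG at position -53 and TATAAA at -35 relative to the start, and Angptl4 had ACGTG at -230 and overlapping TATAAA matches on both strands at -41 and -39. Tsc22d3 had neither. Of the 8 genes, 3 held ACGTG (Angptl4, Errfi1 and Klf9) and 3 held TATAAA (Angptl4, Errfi1 and Sgk1), where 19.7% and 14.3% of 27457 rat promoters of this length did. TGTTCT, a single arm of the glucocorticoid response element, was in 0 of the 8 windows, against 20.1% of all promoters, and so was the core palindrome ACANNNTGT (6.60% of all). The full palindrome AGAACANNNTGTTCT was in 2 of the 27457. Functional elements of glucocorticoid targets often lie far outside such windows, so a missing match says only that these letters are not there. A match to so few letters does not show an element in use. The counts were not tested against the shares of all promoters, and no link of these letters to the changes was tested.

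Of the 10 genes, 4 rose in MCAO (Angptl4, Errfi1, Klf9 and Hsd11b1), 3 fell (Tsc22d3, Nr3c2 and Nr3c1), and 3 did not pass the test (Sgk1, Fkbp5 and Pdk4). The test was limma over 12156 genes, each represented by its brightest probe set, at a Benjamini-Hochberg adjusted p under 0.05. Among all tested genes 22.2% were called higher and 22.1% lower. These shares include near-constant genes (SD under 0.01), whose largest change was 0.015 log2 units. Among the 6339 genes that varied between arrays (SD over the 12 arrays of at least 0.01), as all 10 did, the shares were 35.2% and 34.2%. The counts of 4 and 3 therefore lay near the background. The median log2 change of the 10 genes was 0.15, against 0.03 for all varying genes. Only Angptl4 changed by more than 2-fold, as did 3.61% of varying genes in either direction. All 7 MCAO arrays lay above all 5 Sham arrays for 3 of the genes (Angptl4, Klf9 and Hsd11b1), against 17.9% of varying genes, and below them for Nr3c1 and Nr3c2, against 16.2%. Leaving out any 1 array left these counts at 4 higher and 3 lower.

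**Figure D1:**
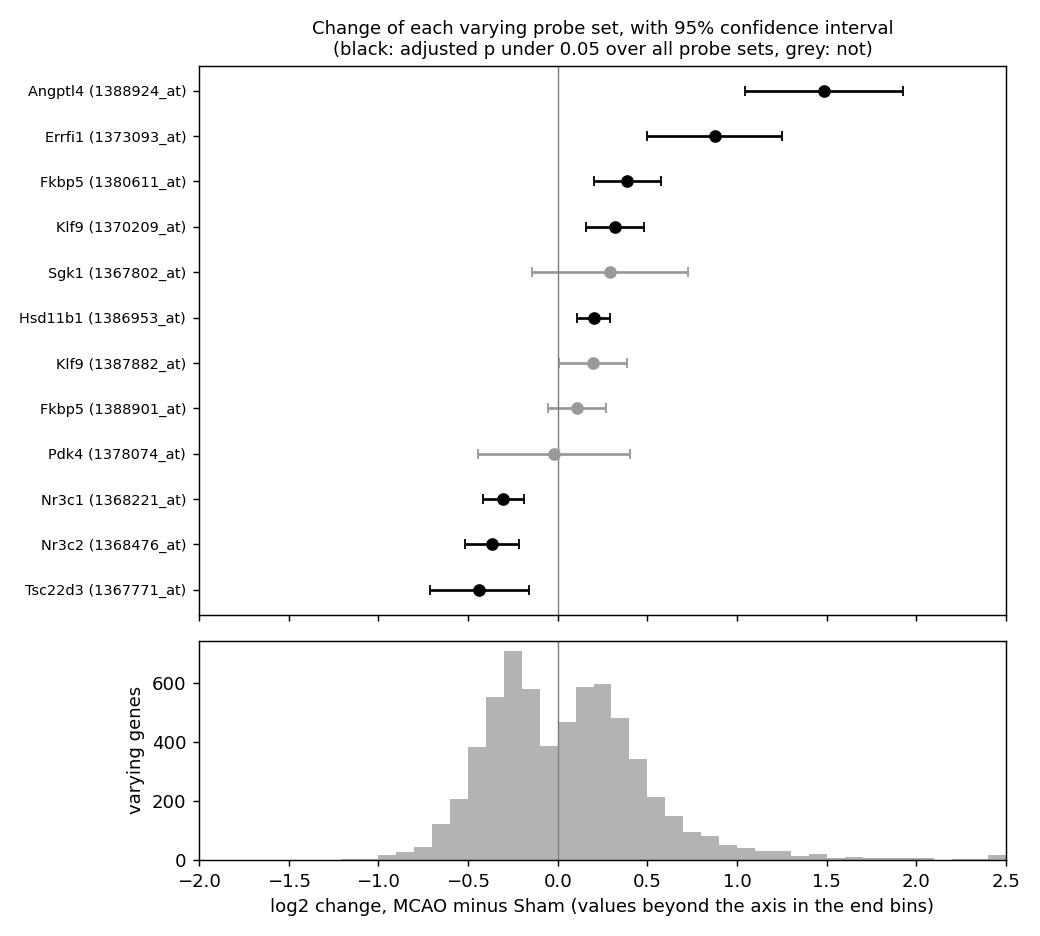
The upper panel gives the log2 change, MCAO minus Sham, of the 12 varying probe sets with its 95% confidence interval, and the lower panel gives the distribution of the same quantity over all 6339 varying genes. Angptl4 (1.48) and Errfi1 (0.88) lie in the right tail, and Tsc22d3 (-0.44), Nr3c2 (-0.37) and Nr3c1 (-0.30) lie to the left of 0.

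The array medians lay between 7.23 and 7.27 log2 units, and the number of arrays limits the precision. Of the probe sets other than controls, 62.5% were near-constant, so close medians say little about the scale of the varying genes. The tissue carried neuronal and myelin transcripts, with mean log2 signals of 13.06 in MCAO and 13.31 in Sham for Snap25 and of 12.86 in MCAO and 12.83 in Sham for Mobp. Markers of neutrophils and monocytes were higher in MCAO for all 4 varying genes of the list (Plac8 by 1.40 on the log2 scale), with a summed linear signal of 617 to 1478 in MCAO and 342 to 396 in Sham. The 3 tested lymphocyte markers (Cd3e, Cd2 and Cd8a) were near-constant (SD under 0.01). Neuronal markers fell for 4 of 8, with Snap25 having the smallest adjusted p, and rose for 0, and the summed signal was 20190 to 25450 in MCAO and 24950 to 26610 in Sham. Astrocyte markers rose for 1 of 6 varying genes (Gfap, 1.91) and fell for 3, and microglial markers rose for 1 of 3 and fell for 2 (P2ry12, -1.26). Endothelial markers rose for 3 of 6 and fell for 1 (Slco1a4, -0.92), oligodendrocyte markers fell for 2 of 5 (Cnp, -0.26), and 1 gene each rose among 4 pericyte (Anpep, 0.35), 3 choroid plexus (Aqp1, 0.46) and 6 meningeal markers (Dcn, 0.61). Neither of the 2 erythroid markers passed (Hbb, 0.20). Among all varying genes 35.2% rose and 34.2% fell, and the counts of these short lists were not tested against those shares. In whole tissue, a loss of cells and a loss of RNA per cell cannot be told apart. The part of the marker differences in the changes below was not tested. The control probe sets of MCAO 6 were out of order (0 of 40 near-constant controls within 0.05 of the other arrays), whereas all 19400 near-constant gene probe sets of that array were within 0.05. Over the other 11 arrays the largest mean difference of a spike-in control between MCAO and Sham was 0.24 log2 units, and the 3' minus 5' log2 signal of beta-actin was 1.37 ± 0.07 in MCAO (SD, n = 6) and 1.43 ± 0.03 in Sham (SD, n = 5; exact two-sided permutation p = 0.121).

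Both receptor genes fell. Nr3c1 (Entrez Gene 24413), which encodes the glucocorticoid receptor, had log2 signals from 8.96 to 9.22 in the 7 MCAO rats, with a median of 9.07, against 9.36, 9.51, 9.36, 9.33 and 9.30 in the 5 Sham rats. Every MCAO value lay below every Sham value. The means were 9.07 ± 0.09 in MCAO (SD, n = 7) and 9.37 ± 0.08 in Sham (SD, n = 5), a log2 change of -0.30 ± 0.05 (SE; limma adjusted p = 0.00202), or -18.9% on the linear scale. The 95% confidence interval of the log2 change was -0.42 to -0.19. A second Nr3c1 probe set (1368222_at) was near-constant at 6.46 in all 12 arrays and did not pass the filter on low values (above 6.61 in at least 5 arrays), so it gives no difference.

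Nr3c2 (Entrez Gene 25672), the mineralocorticoid receptor gene, had 1 probe set. Its log2 signals ran from 7.99 to 8.39 in MCAO, with a median of 8.13, against 8.56, 8.57, 8.60, 8.49 and 8.54 in Sham. The groups did not overlap, and the Sham rats lay close together (SD 0.04, n = 5) while the MCAO rats were spread more widely (SD 0.15, n = 7). The log2 change was -0.37 ± 0.07 (SE; limma adjusted p = 0.00264). The fall of Nr3c1 and that of Nr3c2 could not be told apart. Within each array the log2 difference Nr3c1 minus Nr3c2 averaged 0.89 ± 0.16 in MCAO (SD, n = 7) and 0.82 ± 0.07 in Sham (SD, n = 5), and the difference between the groups was 0.06 (exact two-sided permutation test, p = 0.429; the smallest p the 792 relabellings allow is 0.00253). The 3 genes whose profile over the 12 arrays was closest to that of Nr3c1 were Pogz, Prdm10 and Zfp266, with root mean square differences of 0.04, 0.05 and 0.05 log2 units, where the median over 6338 varying genes was 0.32. Their own log2 changes were -0.30, -0.34 and -0.32. Profiles were matched on log2 differences from the Sham mean, so similar changes follow from the choice, also for Tsc22d3 and Fkbp5 below.

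**Figure D2:**
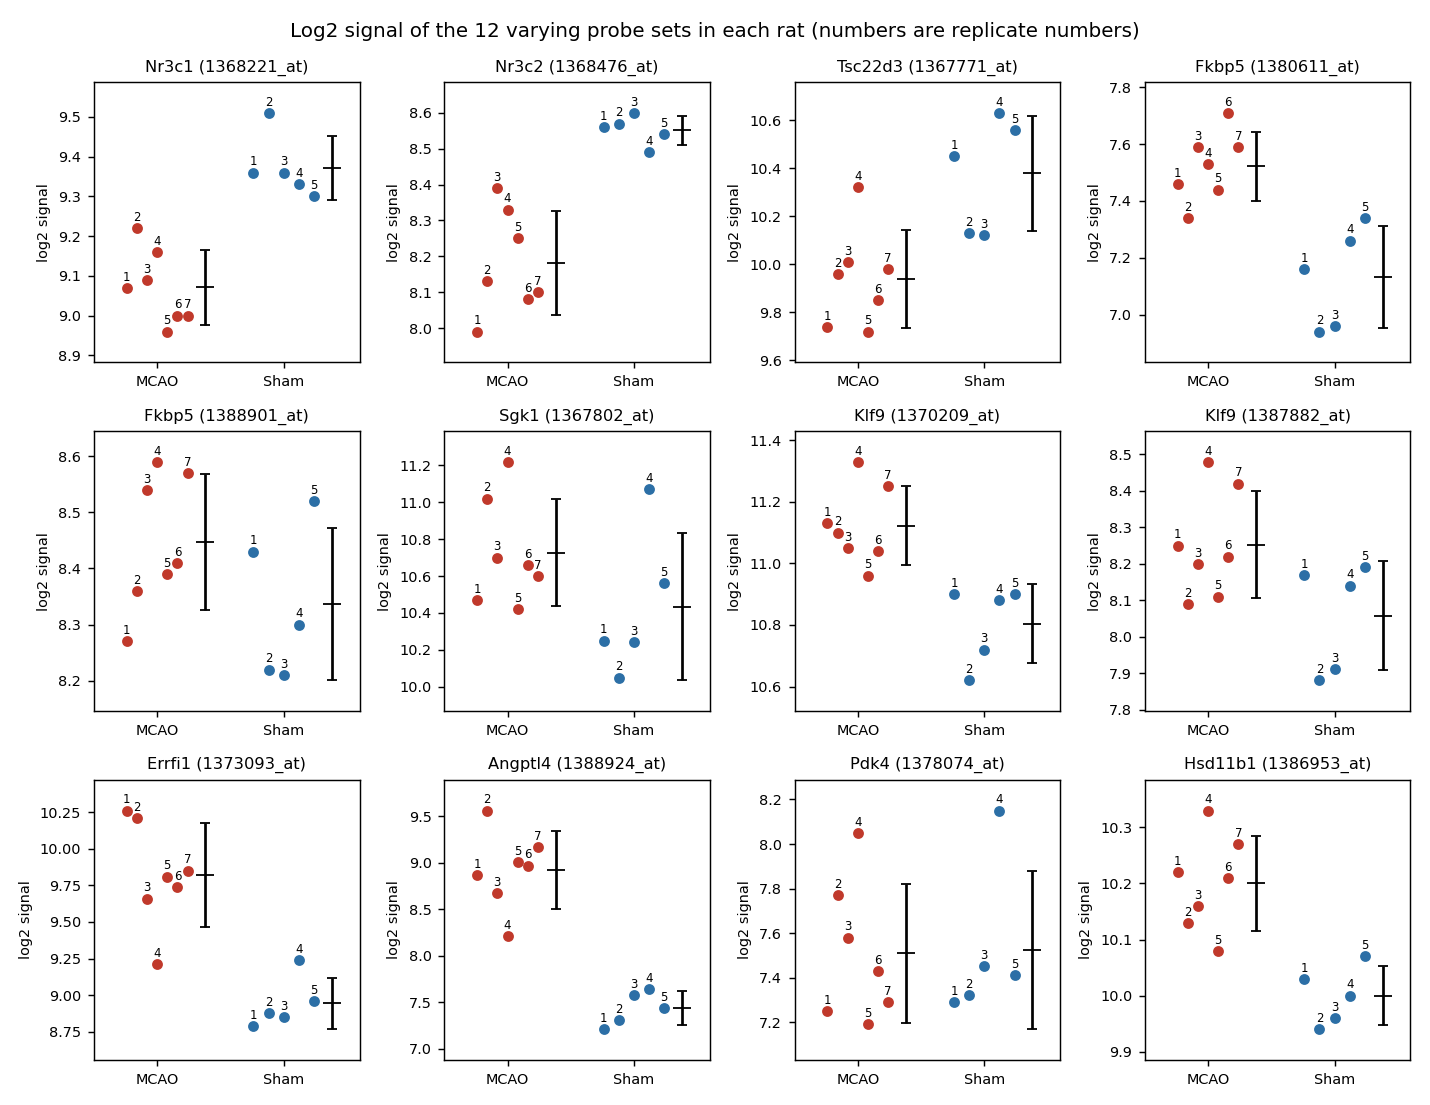
Each panel plots the log2 signal of 1 varying probe set in the 7 MCAO rats and the 5 Sham rats, with the replicate number above each point and the group mean and SD as a black bar beside it. The vertical axes differ between panels and do not start at 0. Nr3c1 and Nr3c2 are lower in every MCAO rat, and Angptl4, Hsd11b1 and Klf9 (1370209_at) are higher in every MCAO rat. The groups overlap in all other panels, Sgk1 and Pdk4 among them.

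Hsd11b1 (Entrez Gene 25116) encodes the reductase that turns inert 11-dehydrocorticosterone back into corticosterone. Its log2 signals ran from 10.08 to 10.33 in MCAO, with a median of 10.21, against 10.03, 9.94, 9.96, 10 and 10.07 in Sham. The groups were adjacent but did not overlap. The gene rose by 0.20 ± 0.04 on the log2 scale (SE; limma adjusted p = 0.00439), or 14.9%, a step smaller than the largest spike-in difference. Hsd11b2, which encodes the enzyme that inactivates corticosterone, was near-constant on this array, and so was H6pd, whose product supplies the cofactor of the Hsd11b1 enzyme.

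Among the feedback targets, Tsc22d3 fell, and Fkbp5 did not pass in the fit over genes. Tsc22d3 (Entrez Gene 83514) encodes GILZ, a leucine zipper protein that restrains inflammatory transcription factors. Its log2 signals ran from 9.72 to 10.32 in MCAO, with a median of 9.96, against 10.45, 10.13, 10.12, 10.63 and 10.56 in Sham. In 6 of 7 MCAO rats it was below every Sham rat, and MCAO 4, at 10.32, lay inside the Sham range. The log2 change was -0.44 ± 0.12 (SE; limma adjusted p = 0.0167), a difference of -26.2%. Leaving out Sham 4, the highest Sham rat, gave -0.38 and an adjusted p of 0.0453 (limma). The closest profiles to Tsc22d3 were those of Cdc42ep4, Fibin and Omd, with root mean square differences of 0.10, 0.13 and 0.13 log2 units and log2 changes of -0.42, -0.36 and -0.40, where the median over the other varying genes was 0.43.

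Fkbp5 (Entrez Gene 361810) encodes a co-chaperone that binds the receptor complex and lowers its affinity for hormone. Its probe sets gave different results. Probe set 1380611_at ran from 7.34 to 7.71 in MCAO, with a median of 7.53, against 7.16, 6.94, 6.96, 7.26 and 7.34 in Sham, and 6 of 7 MCAO rats lay above all Sham rats. It rose by 0.39 ± 0.08 (SE; limma adjusted p = 0.00556 over 17244 probe sets). The brighter probe set, 1388901_at, which represents the gene in the fit over genes, ran from 8.27 to 8.59 in MCAO, with a median of 8.41, against 8.43, 8.22, 8.21, 8.30 and 8.52 in Sham. Its values overlapped, and its log2 change of 0.11 ± 0.07 did not pass (SE; limma adjusted p = 0.258; 95% confidence interval -0.05 to 0.27). The mean of both probe sets gave 0.25 and passed (limma adjusted p = 0.017). Which transcripts each probe set measures is not given in the sources used here. Counted by probe set, 5 of the 12 varying probe sets rose and 3 fell, where 37.0% and 30.7% of 8438 varying probe sets did. With the replicate number as a block, the rise of 1380611_at did not pass (0.34, limma adjusted p = 0.0537). The profiles closest to the brighter Fkbp5 probe set were those of Cd59b, Bbln and Cox6c (0.07, 0.07 and 0.08 log2 units). None of these 3 passed the test, and their small changes follow from the way they were chosen.

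Sgk1 and Errfi1 act on kinase signalling. Sgk1 (Entrez Gene 29517) encodes a kinase that keeps sodium channels and other transporters at the cell surface. Its log2 signals ran from 10.42 to 11.22 in MCAO, with a median of 10.66, against 10.25, 10.05, 10.24, 11.07 and 10.56 in Sham. A single Sham rat, Sham 4, reached the upper part of the MCAO range, and 6 of 7 MCAO rats lay inside the Sham range. The log2 change of 0.29 ± 0.20 did not pass (SE; limma adjusted p = 0.256; 95% confidence interval -0.14 to 0.73). It was 0.45 without Sham 4 (limma adjusted p = 0.0564) and 0.17 with array weights (limma adjusted p = 0.531), and it passed under no alternative.

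Errfi1 (Entrez Gene 313729), which encodes the feedback inhibitor MIG6 of the EGF receptor, had the second largest change of the 10 genes. Its log2 signals ran from 9.21 to 10.26 in MCAO, with a median of 9.81, against 8.79, 8.88, 8.85, 9.24 and 8.96 in Sham. The other 6 MCAO rats were above every Sham rat, while MCAO 4, at 9.21, lay just under Sham 4. The means of 9.82 ± 0.35 in MCAO (SD, n = 7) and 8.95 ± 0.17 in Sham (SD, n = 5) gave a log2 change of 0.88 ± 0.17 (SE; limma adjusted p = 0.00325), a 1.84-fold rise that placed the gene at percentile 95.4 of all varying genes.

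Klf9 (Entrez Gene 117560) encodes a Krüppel-like transcription factor that responds to glucocorticoid and thyroid hormone. Its brightest probe set, 1370209_at, ran from 10.96 to 11.33 in MCAO, with a median of 11.10, against 10.90, 10.62, 10.72, 10.88 and 10.90 in Sham. All MCAO values were above all Sham values, by as little as 0.06 between the nearest rats. The gene rose by 0.32 ± 0.07 (SE; limma adjusted p = 0.00625), or 1.25-fold. A second probe set, 1387882_at, ran from 8.09 to 8.48 in MCAO, with a median of 8.22, against 8.17, 7.88, 7.91, 8.14 and 8.19 in Sham, and its change of 0.20 ± 0.09 did not pass (SE; limma adjusted p = 0.088 over probe sets). Another, 1390076_at, was near-constant at 6.78. The mean of the 3 probe sets, the near-constant one included, rose by 0.17 (limma adjusted p = 0.021).

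The metabolic target Angptl4 had the largest change of the 10 genes and Pdk4 the smallest. Angptl4 (Entrez Gene 362850) encodes a secreted inhibitor of lipoprotein lipase that is also induced by fatty acid-sensing PPAR receptors and by hypoxia. Its log2 signals ran from 8.21 to 9.56 in MCAO, with a median of 8.97, against 7.21, 7.31, 7.58, 7.64 and 7.44 in Sham. Every MCAO rat was above every Sham rat, and the lowest MCAO rat, MCAO 4, exceeded the highest Sham rat by 0.57. The means were 8.92 ± 0.42 in MCAO (SD, n = 7) and 7.44 ± 0.18 in Sham (SD, n = 5), a 2.80-fold rise (log2 change 1.48 ± 0.20, SE; limma adjusted p = 0.000989). It ranked at percentile 98.7 of the changes of all varying genes.

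Pdk4 (Entrez Gene 89813) encodes a kinase that switches off pyruvate dehydrogenase and so spares glucose. Its varying probe set, 1378074_at, ran from 7.19 to 8.05 in MCAO, with a median of 7.43, against 7.29, 7.32, 7.45, 8.15 and 7.41 in Sham. The groups overlapped over almost their whole range. The log2 change was -0.02 ± 0.19 (SE; limma adjusted p = 0.952; 95% confidence interval -0.44 to 0.40), and without Sham 4 it was 0.14 (limma adjusted p = 0.543). The interval leaves room for changes in either direction as large as those of the receptor genes. The other Pdk4 probe set, 1369150_at, was near-constant at 6.90.

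Single rats stood out for several of these genes at once. In MCAO 4, 6 of the 10 genes had their highest MCAO value (Sgk1, Pdk4, Tsc22d3, Klf9, Fkbp5 and Hsd11b1), and Errfi1 and Angptl4 had their lowest. Over all varying genes MCAO 4 was the highest MCAO array for 26.9% and the lowest for 23.4%. MCAO 5 was the lowest MCAO rat for 6 of the 10 genes, against 5.05% of varying genes. Sgk1 and Pdk4 ranked the 7 MCAO rats in the same order, which was MCAO 4, 2, 3, 6, 7, 1 and 5 from high to low. Among the Sham rats, Sham 4 was the highest for 5 genes (Sgk1, Pdk4, Tsc22d3, Errfi1 and Angptl4), against 14.8% of varying genes. Sgk1 in Sham 4 was 0.64 above its group mean and Pdk4 0.63. These counts describe the same 12 arrays and were not tested. The spread within groups was larger in MCAO for 5 genes and larger in Sham for the other 5, whereas it was larger in MCAO for 89.4% of all varying genes. Among the genes counted as larger in Sham, the SDs were nearly equal for Klf9 (0.13 in both groups) and Fkbp5 (0.12 in MCAO and 0.13 in Sham). For Sgk1 and Pdk4 the Sham spread included the high value of Sham 4. This contrast was not tested.

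**Figure D3:**
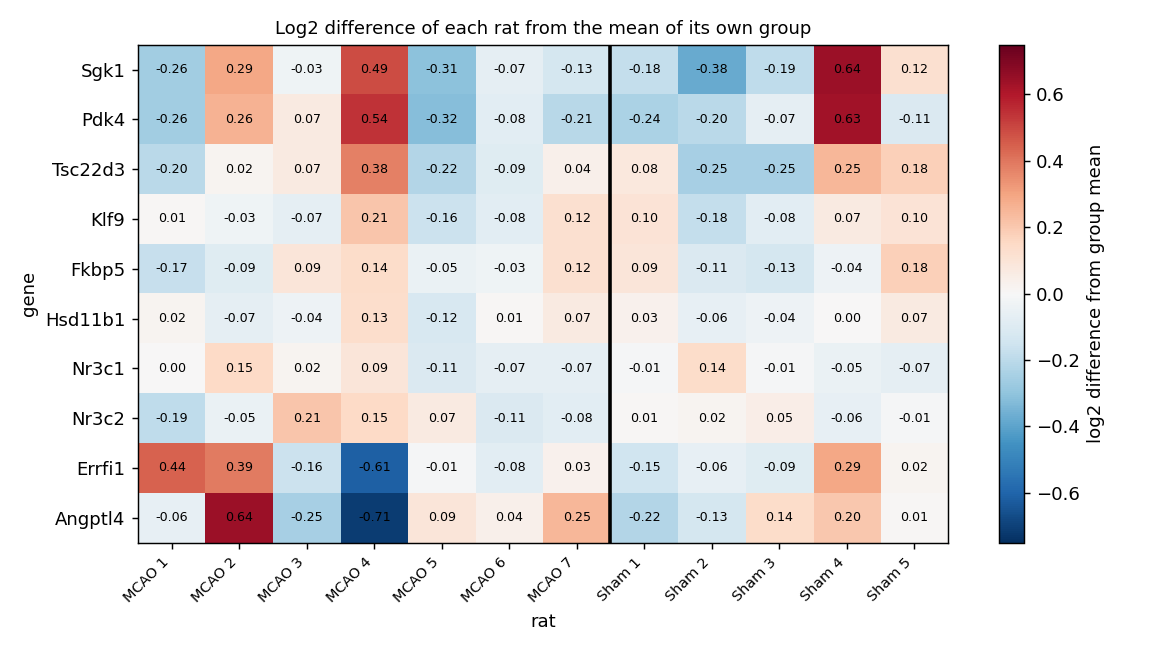
The grid gives, for each gene (rows) and rat (columns, MCAO left of the line and Sham right of it), the log2 difference from the mean of that rat's own group. Sgk1, Pdk4 and Tsc22d3 are above their group mean in MCAO 4 (0.49, 0.54 and 0.38) and Sham 4 (0.64, 0.63 and 0.25), and Errfi1 and Angptl4 are below it in MCAO 4 (-0.61 and -0.71).

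Genes around the receptor were read from lists set up alongside the 10 genes. Of 8 varying receptor chaperone genes, 6 rose and 0 fell, with a median log2 change of 0.28, where 35.2% of all varying genes rose and 34.2% fell. With the replicate number as a block, 2 of the 8 rose. Hsp90ab1, the constitutive cytosolic HSP90 gene, rose by 0.40 ± 0.07 (SE; limma adjusted p = 0.00216). Ptges3, which encodes the p23 co-chaperone, rose by 0.31 ± 0.07 (adjusted p = 0.00573, limma), and Fkbp4, whose product competes with the Fkbp5 protein for HSP90, rose by 0.21 ± 0.05 (adjusted p = 0.00616, limma). In MCAO 4 the mean of the chaperone list was 0.08 above the Sham mean, and in the other 6 MCAO rats 0.19 to 0.37. Only 4 of 13 tested coregulator genes varied. Of these 3 fell, namely the corepressor genes Ncor1 (-0.42 ± 0.07, SE) and Nrip1 (-0.25 ± 0.07) and the coactivator gene Ncoa1 (-0.40 ± 0.07).

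Other genes known to be induced by glucocorticoids went both ways. Of 34 varying genes in that list, 18 rose and 5 fell, with a median log2 change of 0.34, where 35.2% of all varying genes rose and 34.2% fell with a median of 0.03. Several genes of the list were already known to rise in these data, so the count is no independent evidence of a direction. The rises with the smallest adjusted p were those of Cebpd, a transcription factor gene (2.30 ± 0.18, SE; limma adjusted p = 0.000112), Lcn2, an acute-phase lipocalin gene (2.52 ± 0.23; adjusted p = 0.000219), and the metallothionein gene Mt2A (1.70 ± 0.16; adjusted p = 0.000244). All 3 were higher in every MCAO rat, and all 3 are also known to respond to inflammatory or metal signals. The falls with the smallest adjusted p were those of the transcription factor gene Foxo3 (-0.36 ± 0.06, SE), the astrocyte connexin gene Gjb6 (-0.96 ± 0.22) and the deubiquitinase gene Usp2 (-0.45 ± 0.14). The count of falls was 2 without Sham 4 and 3 without Sham 5, while that of rises was 17 or 18 without any 1 array. For Gjb6 the value of MCAO 4 was 9.77, within the Sham range of 9.54 to 9.99, and the other MCAO rats lay between 8.36 and 8.96. Sham 4 was the highest Sham rat for 19 of the 34 genes, as it was for 5 of the 10 described above. The clock gene Per1 and the phosphatase gene Dusp1, both rapidly induced by the hormone and picked here after their values were seen, had changes of -0.13 ± 0.12 and -0.27 ± 0.22 that did not pass (SE; limma adjusted p = 0.395 and 0.358).

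**Figure D4:**
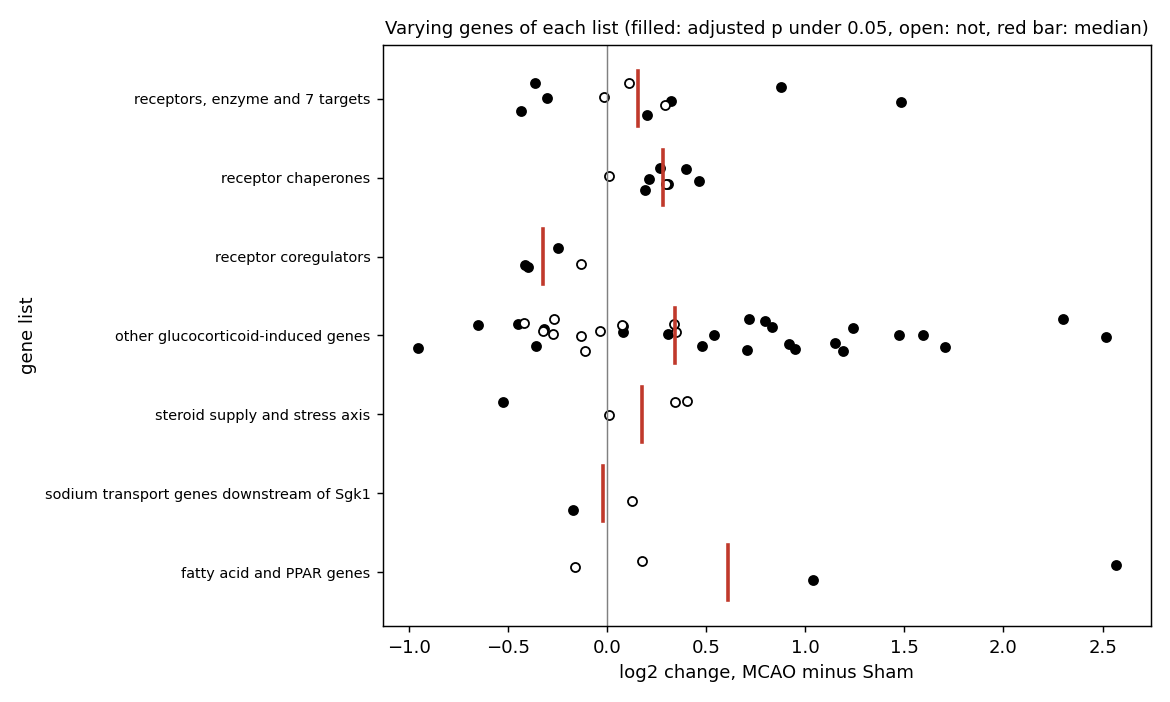
Each point is the log2 change, MCAO minus Sham, of 1 varying gene, by list, filled where the limma adjusted p was under 0.05, with the list median as a red bar. Receptor chaperones lie to the right of 0, coregulators to the left, and the other glucocorticoid-induced genes spread from -0.96 (Gjb6) to 2.52 (Lcn2).

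The lists nearest to single targets were small. Among all varying genes 35.2% rose and 34.2% fell, and counts this small cannot be told apart from those shares. Of 4 varying genes of steroid supply and the stress axis, Abcb1a, a drug efflux pump gene of the blood-brain barrier, fell by 0.53 (SE 0.14; limma adjusted p = 0.0145). Crh, the corticotropin-releasing hormone gene, which was picked after its value was seen, as were Nedd4l and Cpt1a below, differed by 0.34 ± 0.23, short of the threshold (limma adjusted p = 0.258). Of 2 varying sodium transport genes downstream of the Sgk1 kinase, the sodium pump subunit gene Atp1b1 fell by 0.17 (SE 0.05; limma adjusted p = 0.0234) and Nedd4l did not pass (0.12 ± 0.08). Of 9 tested fatty acid and PPAR genes, which share regulators with Angptl4 and Pdk4, 5 were near-constant. The receptor genes Ppara and Pparg were not tested. Of the 4 genes that varied, 2 rose. They were the lipid droplet gene Plin2 (2.57 ± 0.24, SE; limma adjusted p = 0.000244) and the fatty acid receptor gene Cd36 (1.04 ± 0.20; adjusted p = 0.00293), and both were higher in every MCAO rat. Cpt1a, a mitochondrial fatty acid import gene, had -0.16 ± 0.07 and did not pass (adjusted p = 0.077, limma).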

How the data were processed

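The deposited table holds 31099 probe sets for 12 arrays. Its values are read as log2 from their range (5.00 to 14.01), since no log base is given with the deposited table. No source used here gives the authors' software, background correction or normalization. The labels' protocols state that total RNA was extracted with TRIzol, cleaned on a column and labelled with biotin. Probe sets were named from the platform's annotation (1 gene for 20826, several for 436, none for 9780), and 62.5% of those other than controls were near-constant (SD under 0.01). The sign and size of differences in near-constant probe sets were not interpreted.

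Values were used as deposited, because the array medians spanned 0.05. Testing covered 17244 probe sets with 1 gene whose value exceeded 6.61 (the 25th percentile of all values) in 5 or more arrays, among them 14 of the 15 described. For the 12156 genes the brightest probe set on average was used. MCAO was compared with Sham in limma 3.58.1 (R 4.3.3; linear fits, moderated by eBayes with a trend, two-sided, Benjamini-Hochberg over all genes or all probe sets), and SEs and confidence intervals come from that fit. Simulated data with known changes were used to test it. A gene low in 1 group could pass the filter through the other group alone.

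The 10 genes and all lists were chosen with earlier results of these data known. Named genes were all 10, the 3 called genes with the smallest adjusted p in each direction of each list, and the 3 closest profiles of Nr3c1, Fkbp5 and Tsc22d3. Of each marker list the gene with the smallest adjusted p was named as well. Per1, Dusp1, Crh, Nedd4l, Cpt1a and Mobp, and near-constant or untested genes given as such, fall outside this rule and were picked after their values were seen. The series' design counts 12 rats for the 12 arrays, so replicates are separate animals, and nothing used here gives their litter, surgery day or array batch. Alternatives were 2 other scalings, other filters, no near-constant probe sets, no trend, array weights, the replicate number as a block, the mean of probe sets, and leaving out each array.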

Additional observations from a re-analysis of the deposited data

Results flagged for a closer look

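In the Sham group the varying Pdk4 probe set had 1 rat far from the others: Sham 4 was at 8.15, and the other 4 Sham rats lay between 7.29 and 7.45. The gap to the nearest rat was 0.81 of the group's whole range, where 0.71 is the critical ratio for 5 samples. It was the only such gap among 24 groups of values examined, and chance flags about 1 in 20. The same rat was the highest Sham rat for Sgk1 (11.07, against 10.05 to 10.56 in the other Sham rats) and Tsc22d3 (10.63). The source of this rat's values was not tested.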

How the results depend on the processing

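The changes of Angptl4, Nr3c1, Nr3c2 and Klf9 kept their direction and passed under every alternative and without any 1 array, although Klf9 was 0.17 with the mean of probe sets (0.32 as reported). Tsc22d3, Errfi1 and Hsd11b1 did so except with the replicate block, as did Fkbp5 probe set 1380611_at. The replicate block used replicate numbers 1 to 5 and 10 of the 12 arrays. Nothing used here states whether the numbers pair the samples. Pairing was looked at only through the correlations below, which were not tested against chance. The deviations of same-numbered rats from their group means correlated at 0.32, 0.54, -0.33, -0.05 and 0.16 over 6339 genes. MCAO 1, MCAO 2 and MCAO 5 correlated best with the Sham rat of the same number. For MCAO 3 the best was Sham 5, and for MCAO 4 it was Sham 3. With the replicate block 3124 genes were called (5386 as reported), 2779 varying genes (4394) and 4065 probe sets (7317). Of the 10 genes, 2 were then called higher (4 as reported) and 2 lower (3). The chaperone count was 2 with the block (6), and the falls among other glucocorticoid-induced genes were 1 with the block, 9 with array weights and 3 with the mean of probe sets (5). Pdk4, which did not pass in any setting, turned to 0.0412 with the replicate block and ranged from -0.11 to 0.14 when single arrays were left out. For the difference between the Nr3c1 and Nr3c2 changes, the mean was taken over all probe sets, including the near-constant Nr3c1 probe set that the filter removes elsewhere, and it was 0.21 (exact permutation p = 0.00758). In the fit over genes the mean covers only probe sets that passed the filter, and Nr3c1 stayed at -0.30. Recomputing the counts of the lists, of varying genes and of the 10 genes was chosen after seeing the data. The largest spike-in difference between the groups was 0.24 log2 units, so changes of that size or smaller are the least secure.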
